A study of Mus musculus with 6 samples.

Results

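The 10 genes described here are Fasn, Acly, Acaca, Scd1, Elovl6, Thrsp, Dgat2, Pck1, Me1 and Srebf1, the core of fatty acid synthesis with its regulators and its outlet into triglyceride. Each was found on exactly 1 of the 23521 probe sets that carry 1 gene symbol in the array's platform annotation, so 10 probe sets of the 41345 on the array stand for the 10 genes. The genes were chosen by name, with their difference between the genotypes already known from these arrays. That difference is therefore given as a description, with no test. By their textbook roles the name of the group does not cover Dgat2 and Pck1. Dgat2 stores fatty acids in triglyceride, and Pck1 makes the glycerol backbone and glucose rather than fatty acids.

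RNA of dissected sinoatrial node (SAN) tissue of adult mice was measured on 6 arrays, 3 of HCN4FEA and 3 of WT mice, all labelled male. HCN4FEA is a global knockin line, made by homologous recombination, in which 3 amino acid exchanges leave the pacemaker channel HCN4 without a response to cAMP. WT mice carry the unchanged channel, and both groups were bred in-house on a background that mixes C57BL/6 N with a second inbred strain. No drug or other treatment is named for either group, and the methods give n = 3 for each genotype without saying whether tissue was pooled for an array. The knockin was made in embryonic stem cells and is present in every tissue. All values are log2 RMA signals, which the authors set to a common distribution over the arrays, so that a difference of 1 is a doubling.

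The tissue carried its own markers on every array. The atrial genes Nppa and Myl7 averaged 11.56 and 11.09 in HCN4FEA and 11.60 and 11.11 in WT tissue, and the pacemaker transcription factor gene Tbx3 averaged 6.03 in HCN4FEA and 5.87 in WT tissue. The mean of 10 pacemaker markers lay between 5.28 and 5.64 on the HCN4FEA arrays and between 5.16 and 5.73 on the WT arrays. It was lowest on WT 1, where Hcn4 was at 5.04, against 5.71 to 6.51 on the other 5 arrays. Xist, which female cells make from their inactive X, lay between 8.97 and 9.43 and the Y-linked Uty, Eif2s3y and Kdm5d between 1.09 and 1.62 on the 6 arrays, which goes against the male label on all of them alike. HCN4FEA 3 and WT 1 stood apart in neuron markers: 11 measured markers averaged 5.16 on HCN4FEA 3 and 4.43 on WT 1, against 2.34 to 2.57 on the other 4 arrays. WT 1 was also low in 8 mesothelial markers, with a mean of 4.92 against 5.71 to 5.96 on the other 5. Of 10 macrophage markers, 4 were higher in HCN4FEA tissue at an unadjusted p under 0.05 by limma and 0 lower (0 after adjustment), and all 10 had fold changes above 0. Of all 25341 probe sets tested, 3.40% were higher at that threshold and 13435 had fold changes above 0. The list's mean was 5.77 to 5.95 on the HCN4FEA and 5.54 to 5.76 on the WT arrays. Of 12 skeletal muscle markers, 3 were higher (Tnnt3, Casq1 and Acta1) and 0 lower, with list means of 3.48 to 3.59 on the HCN4FEA and 3.12 to 3.36 on the WT arrays. Fold changes were above 0 for 9 of them and below 0 for 3, Ckm (-0.24), Tnni2 (-0.11) and Myh4 (-0.25). Ckm had the highest signal of the list. The summed linear signal overlapped, at 590 to 741 on the HCN4FEA and 663 to 714 on the WT arrays. The part of these differences in the results below was not tested.

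Fatty acids are made in the cytosol from citrate that leaves the mitochondria. ATP citrate lyase (Acly) splits the citrate into acetyl-CoA, acetyl-CoA carboxylase (Acaca) turns that into malonyl-CoA, and fatty acid synthase (Fasn) builds palmitate from both, with NADPH from malic enzyme (Me1) and the pentose phosphate pathway. Elovl6 lengthens the chain, Scd1 puts in a double bond, and Dgat2 attaches fatty acids to diacylglycerol for storage. SREBP-1, the product of Srebf1, and the carbohydrate-responsive factor ChREBP switch these genes on together, mainly in liver, fat and lactating mammary gland. The heart makes little fatty acid and burns it instead, while the fat around it holds the pathway at a high level.

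Promoters of 8 of the 10 genes were found in the RefSeq table for GRCm38.p6, on 11 start sites, each with 250 bases before and 50 after the start. Shown are those of Fasn, Acly and Thrsp, which moved together within the genotypes, and that of Pck1, which did not move with them. Acaca and Elovl6 also moved with Fasn, but their windows, not shown, had no match to any motif searched. Capitals mark matches, on either strand, to the CCAAT box (CCAAT), the GC box (GGGCGG) and the core of the cAMP response element, CRE (TGACG).
Fasn, chr11:120824498-120824797, minus strand: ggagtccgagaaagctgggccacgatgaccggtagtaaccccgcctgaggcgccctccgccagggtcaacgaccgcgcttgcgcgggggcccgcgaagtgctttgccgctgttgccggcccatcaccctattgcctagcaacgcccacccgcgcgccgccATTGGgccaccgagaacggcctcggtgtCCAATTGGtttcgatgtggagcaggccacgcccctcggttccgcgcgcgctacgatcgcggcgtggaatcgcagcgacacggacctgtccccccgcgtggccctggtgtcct
Acly, chr11:100527951-100528250, minus strand: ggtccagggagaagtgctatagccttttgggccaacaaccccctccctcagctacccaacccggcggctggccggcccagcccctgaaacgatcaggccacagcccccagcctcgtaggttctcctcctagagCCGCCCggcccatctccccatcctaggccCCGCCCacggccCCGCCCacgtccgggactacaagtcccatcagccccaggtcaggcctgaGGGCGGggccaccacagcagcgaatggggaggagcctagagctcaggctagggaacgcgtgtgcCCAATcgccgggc
Thrsp, chr7:97417501-97417800, minus strand: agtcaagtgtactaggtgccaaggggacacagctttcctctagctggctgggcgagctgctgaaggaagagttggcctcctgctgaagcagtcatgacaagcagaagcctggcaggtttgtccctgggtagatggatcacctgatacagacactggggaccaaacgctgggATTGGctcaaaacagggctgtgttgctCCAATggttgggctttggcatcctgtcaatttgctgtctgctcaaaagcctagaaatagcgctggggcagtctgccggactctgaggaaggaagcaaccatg
Pck1, chr2:173152823-173153122, plus strand: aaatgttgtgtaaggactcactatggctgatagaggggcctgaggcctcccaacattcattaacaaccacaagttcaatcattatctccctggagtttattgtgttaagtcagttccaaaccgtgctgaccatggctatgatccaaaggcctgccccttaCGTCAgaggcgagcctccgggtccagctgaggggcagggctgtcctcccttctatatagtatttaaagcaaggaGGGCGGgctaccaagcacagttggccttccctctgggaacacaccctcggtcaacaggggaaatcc
A CCAAT box was present in a promoter of 5 of the 8 genes (Fasn, Acly, Thrsp, Me1 and Srebf1), against 37.4% of all 32851 promoters of that length, and the Fasn window held 3 matches, a pair of which overlap, and the Thrsp window 2. A GC box was present for 4 genes (Acly, Pck1, Me1 and Srebf1), against 35.7% of all promoters. Me1 and Srebf1 have several start sites and were counted with a match at any of them. The percentages are per promoter, so the counts of genes are not like for like with them. The CRE core was found only for Pck1 among the 8, against 20.8% of all promoters. Neither the sterol regulatory element searched as TCACNCCAC (1.24% of all promoters) nor the E-box CACGTG (7.15%) had a match in these windows, which says only that these letters are not in them.

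The difference between HCN4FEA and WT SAN tissue is given here gene by gene, in the order of the pathway. The log2 fold changes, HCN4FEA minus WT, lay between -1.29 and -0.12 with a median of -0.49, and were below 0 for all 10 genes. Over all 25341 probe sets tested the median was 0.01, and 47.0% were below 0. As a description only, 3 of the 10 genes were among the 2.71% of all probe sets that were lower at an unadjusted p under 0.05 by limma, and 0 were among the 3.40% that were higher. An adjusted p under 0.05 was reached by 0 genes or probe sets. All HCN4FEA arrays lay below all WT arrays for 3 genes, Fasn, Acaca and Thrsp, beside 4.92% of all probe sets. Nothing is read from these counts, since this contrast was known when the genes were chosen. Less RNA per cell and fewer cells that express these genes cannot be told apart in whole tissue.

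**Figure D1:**
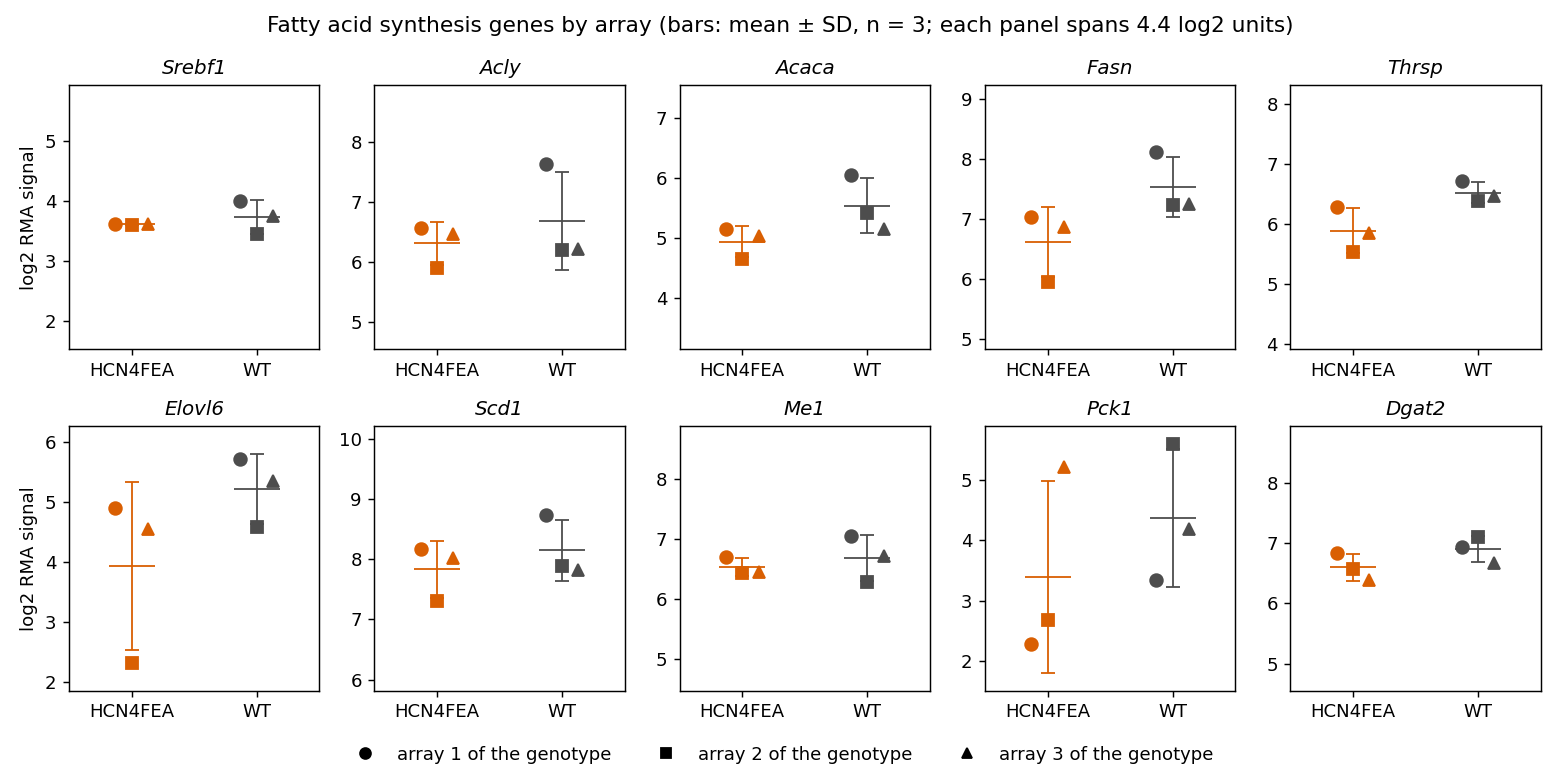
Log2 RMA signal of the 10 genes on each array, HCN4FEA left and WT right in each panel, with bars for the mean ± SD (n = 3) and a marker shape for each array number. WT 1 had the highest value of all 6 arrays for 8 genes and HCN4FEA 2 the lowest for 6, while Pck1 was high on HCN4FEA 3 and WT 2.

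Srebf1, the master regulator, had 3.61, 3.59 and 3.62 on HCN4FEA 1 to 3, against 4.0, 3.45 and 3.74 on WT 1 to 3. The HCN4FEA values were almost equal and lay inside the range of WT, and the fold change was -0.12 (standard error 0.15). A whole-gene probe set does not separate the SREBP-1a and SREBP-1c transcripts, nor does it measure the cleaved, active protein.

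Acly had 6.57, 5.90 and 6.46 in HCN4FEA, against 7.63, 6.20 and 6.22 in WT tissue. WT 1 alone was high, the other WT arrays lay below HCN4FEA 1 and 3, and the groups overlapped. Its fold change of -0.38 (standard error 0.38) was 0.10 without WT 1. Acaca, the next step and the committed one, had 5.14, 4.65 and 5.03 in HCN4FEA, against 6.04, 5.42 and 5.15 in WT tissue. The groups did not overlap, but HCN4FEA 1 and WT 3 were 0.02 apart. The fold change was -0.60 (standard error 0.24), or 0.659-fold.

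Fasn had 7.03, 5.95 and 6.87 in HCN4FEA, against 8.11, 7.24 and 7.25 in WT tissue. Its means were 6.62 ± 0.58 in HCN4FEA and 7.54 ± 0.50 in WT (SD, n = 3 each), a fold change of -0.92 (standard error 0.33), or 0.529-fold. The groups were 0.22 apart, with HCN4FEA 2 low and WT 1 high within their genotypes. Thrsp, which encodes the thyroid hormone responsive Spot 14 protein of lipogenic tissues, had 6.29, 5.53 and 5.86 in HCN4FEA, against 6.72, 6.38 and 6.47 in WT tissue. WT values were close to each other (SD 0.18), the groups were 0.08 apart, and the fold change was -0.63 (standard error 0.20).

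Elovl6, the elongase from palmitate to stearate, had 4.91, 2.33 and 4.55 in HCN4FEA, against 5.72, 4.59 and 5.35 in WT tissue. It had the largest fold change of the 10, -1.29 (standard error 0.63). HCN4FEA 2 stood far below the other arrays, was below 2.53, the 99th percentile over the 1405 probe sets for smell and pheromone receptors, which heart tissue should lack, and without it the fold change was -0.49. Scd1, the main stearoyl-CoA desaturase of fat and liver, had 8.18, 7.30 and 8.02 in HCN4FEA, against 8.73, 7.89 and 7.83 in WT tissue. HCN4FEA 1 and 3 lay above WT 2 and 3, so the groups overlapped, and the fold change of -0.32 (standard error 0.30) was -0.03 without WT 1 and -0.05 without HCN4FEA 2.

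Me1, the cytosolic malic enzyme, had 6.70, 6.43 and 6.46 in HCN4FEA, against 7.05, 6.29 and 6.72 in WT tissue. All HCN4FEA values lay inside the range of WT, and the fold change was -0.16 (standard error 0.19). Dgat2, the acyltransferase of the last step of triglyceride synthesis, had 6.84, 6.58 and 6.39 in HCN4FEA, against 6.94, 7.10 and 6.67 in WT tissue. The groups overlapped by 1 array on each side, and the fold change was -0.30 (standard error 0.16).

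Pck1, the cytosolic phosphoenolpyruvate carboxykinase, which serves glyceroneogenesis in fat and glucose production in liver, had 2.27, 2.68 and 5.22 in HCN4FEA, against 3.34, 5.61 and 4.19 in WT tissue. It had the widest spread of the 10 genes within both genotypes, 2.94 in HCN4FEA and 2.28 in WT. HCN4FEA 1 lay below the receptor percentile of 2.53 and HCN4FEA 2 just above it. The groups overlapped, with a fold change of -0.99 (standard error 0.82). It was -1.90 without HCN4FEA 3 and -0.37 without WT 2, the 2 arrays on which Pck1 was high.

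**Figure D2:**
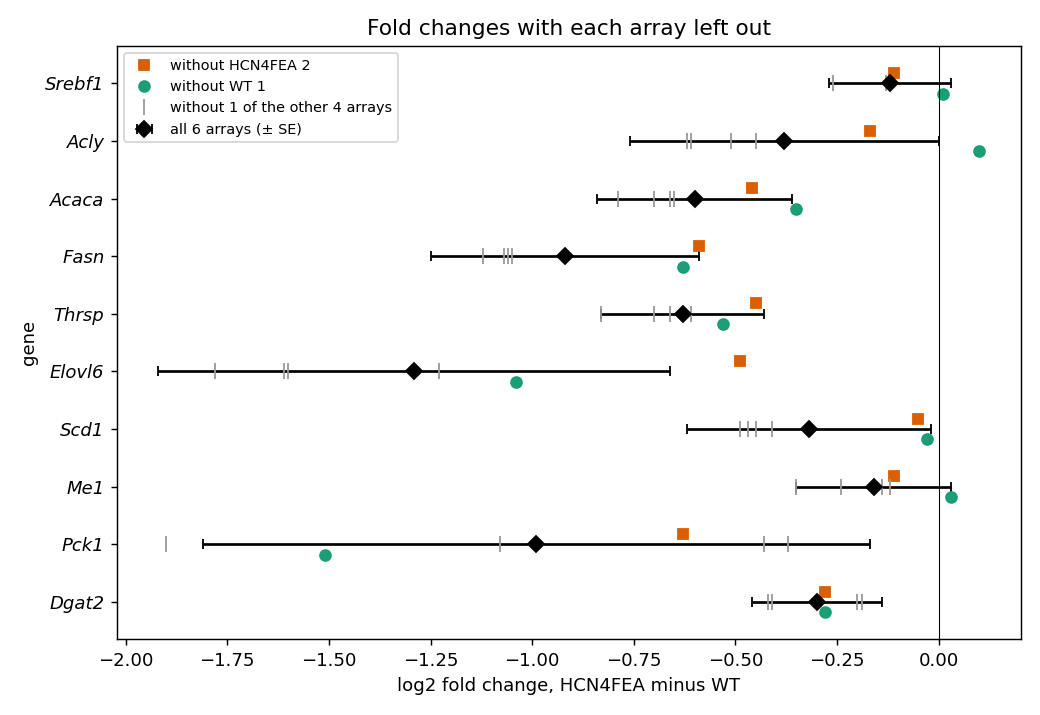
Log2 fold change, HCN4FEA minus WT, of the 10 genes from the fit on all 6 arrays (black diamonds, bars are ± 1 standard error) and with each array left out. Without WT 1 or HCN4FEA 2 the values of Fasn move to -0.63 and -0.59 and those of Scd1 to near 0, while Pck1 moves away from 0 without WT 1.

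The weight of single arrays was set out by leaving out each in turn. Without WT 1, 3 of the 10 genes (Acly, Me1 and Srebf1) had fold changes above 0, and the median of the 10 was -0.31. Without HCN4FEA 2 the median was -0.37. Without WT 1 and HCN4FEA 3, the arrays with high neuron markers, Pck1 had a fold change of -2.42 and Fasn one of -0.76.

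The next question was how the 10 genes varied among arrays of the same genotype. For each gene, the mean of its genotype was taken from each value, which removes the genotype difference from the deviations. The choice of genes still enters, since a low HCN4FEA 2 or a high WT 1 also lowers the fold changes known beforehand. Their median was -0.49 with all arrays, -0.31 without WT 1 and -0.37 without HCN4FEA 2. The shares below are therefore a description. HCN4FEA 2 was the lowest HCN4FEA array and WT 1 the highest WT array for 8 of the 10 genes, all but Pck1 and Dgat2. Of all probe sets tested, 10% had that order, and 8.42% of the 8702 with a mean of at least 4. The order was not particular to the 10 genes. It was also that of 6 of 11 neuron markers and 5 of 23 adipocyte markers. Only 2 of the 11 neuron markers had a mean of at least 4. HCN4FEA 2 alone was lowest for 32.2% and WT 1 alone highest for 31.2%. The 10 genes are not independent of each other, and the order was noted after the values were seen. For Srebf1 and Me1 the HCN4FEA part of that order rests on differences of at most 0.03.

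**Figure D3:**
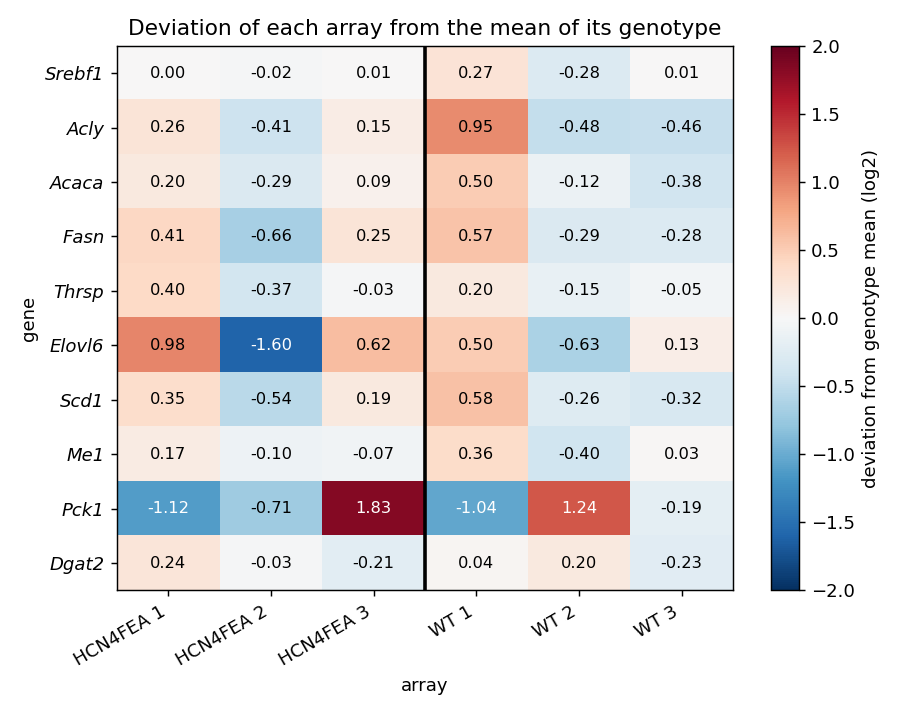
Deviation of each array (columns) from the mean of its genotype (log2, colour and printed value) for the 10 genes (rows), HCN4FEA arrays left of the line and WT arrays right of it. Fasn, Acly, Acaca, Scd1, Elovl6 and Thrsp are below their mean on HCN4FEA 2 and above it on WT 1, and Pck1 has its highest deviations, 1.83 and 1.24, on HCN4FEA 3 and WT 2.

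Fasn deviated by 0.41, -0.66 and 0.25 on HCN4FEA 1 to 3 and by 0.57, -0.29 and -0.28 on WT 1 to 3. Scd1 deviated by 0.35, -0.54 and 0.19 on the HCN4FEA arrays and by 0.58, -0.26 and -0.32 on the WT arrays, nearly the same set of values. Acly, whose product feeds Acaca and Fasn, reached 0.95 on WT 1 and -0.41 on HCN4FEA 2. Elovl6 had the same signs as Fasn on 5 of the 6 arrays, with -1.60 on HCN4FEA 2. Over the 15 pairs among Fasn, Acly, Acaca, Scd1, Elovl6 and Thrsp, Pearson's r of the deviations lay between 0.63 and 0.99. This is a description over 6 arrays that share 2 fitted means and their RNA preparation, and the 6 genes were grouped after their values were seen. Me1 and Srebf1 had r between 0.43 and 0.81 with these 6 genes, and Dgat2 between 0.00 and 0.38.

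Pck1 ran another way. It deviated by -1.12, -0.71 and 1.83 on HCN4FEA 1 to 3 and by -1.04, 1.24 and -0.19 on WT 1 to 3. Its r with the other 9 genes lay between -0.70 and -0.03. WT 1, highest in Fasn, Acly, Acaca and Scd1, was lowest in Pck1 among the WT arrays. HCN4FEA 3, highest in Pck1, was close to the HCN4FEA mean of Acaca and Thrsp.

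The citrate carrier Slc25a1, which brings the substrate of Acly out of the mitochondria, showed the order of the synthesis enzymes, though it is not one of the 10. It had 5.71, 5.04 and 6.06 in HCN4FEA, against 6.69, 5.45 and 6.00 in WT tissue, with overlapping groups and a fold change of -0.45. Acss2, which makes acetyl-CoA from acetate, had 5.89, 5.53 and 5.69 in HCN4FEA, against 6.17, 5.60 and 5.78 in WT tissue. Of 27 measured genes of synthesis, elongation and desaturation outside the 10, 4 had HCN4FEA 2 lowest and WT 1 highest in their genotypes (Slc25a1, Acss2, Elovl4 and Elovl5), against the 10% of all probe sets above. The mean of Elovl4, 2.14, was below the receptor percentile of 2.53. For Elovl5 the order rests on 7.06 against 7.12 in HCN4FEA and 7.29 against 7.26 in WT tissue.

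Cholesterol synthesis, the branch that SREBP-2 controls from the same acetyl-CoA, shared the WT part of that order more than the HCN4FEA part. Of 17 measured genes, 1 (Hmgcs1) had HCN4FEA 2 lowest and WT 1 highest, against 10% of all probe sets. That count alone does not set the list apart. WT 1 was the highest WT array for all but Mvk, Mvd, Cyp51, Ebp and Stard4, against 31.2% of all probe sets. HCN4FEA 2 was the lowest HCN4FEA array only for Hmgcs1, Mvk, Cyp51 and Ebp, against 32.2%. Squalene epoxidase, Sqle, had 3.12, 3.49 and 4.77 in HCN4FEA, against 3.86, 3.18 and 3.70 in WT tissue. The farnesyl diphosphate and squalene synthase genes Fdps and Fdft1 were highest on HCN4FEA 3 as well, at 6.53 and 6.40, and on WT 1 within WT, at 6.14 and 5.95. HCN4FEA 3 and WT 1 were the 2 arrays with high neuron markers, whose part in this was not tested. The list's mean was 4.57 on HCN4FEA 3 and 4.54 on WT 1, against 4.08 to 4.29 on the other 4 arrays. Without Hsd17b7, which stood apart on WT 1 (5.85, against 2.98 to 3.17 elsewhere), it was 4.66 on HCN4FEA 3 and 4.45 on WT 1, against 4.14 to 4.37 on the others.

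The genes whose 6 deviations were most like the mean deviation of the 10, among 7753 other genes with a mean of at least 4, had r from 0.977 to 0.998 over 6 arrays. That mean was unscaled and leaned on Pck1, which deviated by -1.12 on HCN4FEA 1 and 1.83 on HCN4FEA 3. On these arrays the mean was 0.19 and 0.28, while the median of the 10 was 0.25 and 0.12. The genes are therefore not the nearest matches to the synthesis enzymes that moved together. They were Togaram1, Gclm, 2410002F23Rik, B2m, Kmt2e, Zfp148, Phtf1, Akirin2, Rin2 and H2-Aa. Their deviations were small, with a full span of 0.12 (Kmt2e) to 0.55 (H2-Aa), while those of Fasn ran from -0.66 to 0.57. B2m and H2-Aa serve antigen presentation and Gclm glutathione synthesis. With arrays centred on their medians 5 of these genes were again among the first 10, by Spearman's rho 1, and by likeness to Fasn alone 4.

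For the other genes of the pathway, HCN4FEA and WT tissue were set against each other in the fit across all probe sets. Of 127 genes on 7 lists (synthesis and elongation, NADPH supply, regulators, glycerolipid synthesis, pyruvate and glucose entry, cholesterol synthesis, insulin and AMPK inputs), 7 passed an unadjusted p of 0.05, 1 higher and 6 lower. That is 5.51% of the 127, close to the 6.10% of all probe sets, and 0 passed an adjusted p of 0.05. The lists had medians between -0.04 and 0.05. Without WT 1, 3 of the 127 passed (2.36%), and without WT 3, 11 passed (8.66%).

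Of 27 genes of synthesis, elongation and desaturation, 1 was lower and 0 higher. This was Aacs, acetoacetyl-CoA synthetase, with 2.25, 2.48 and 2.50 in HCN4FEA, against 2.67, 2.81 and 2.86 in WT tissue, values near the receptor percentile of 2.53 (-0.37, standard error 0.12, adjusted p = 0.778 from limma). Acacb, the carboxylase whose malonyl-CoA holds back fatty acid import into mitochondria, had a fold change of -0.31 (95% confidence interval -0.62 to 0.00). Hacd4 and Acss1 were at 0.41 (-0.08 to 0.90) and -0.26 (-0.59 to 0.07). The desaturases Fads1 and Fads2, which act on polyunsaturated fatty acids, had -0.03 and 0.02.

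Of 23 regulators, 1 was higher and 1 lower. Scap, the escort of SREBP proteins from the endoplasmic reticulum, had 6.00, 6.09 and 6.20 in HCN4FEA, against 5.75, 5.78 and 5.75 in WT tissue (0.33, standard error 0.11, adjusted p = 0.778 from limma). The groups did not overlap, and it stayed at the threshold in all 6 runs that leave out an array. Its other probe set, with a mean of 1.61, had -0.04, and with both averaged Scap did not pass the threshold (0.15). Mlxipl, which encodes ChREBP, had 4.57, 4.95 and 4.36 in HCN4FEA, against 5.61, 5.30 and 4.86 in WT tissue. Its fold change was -0.63 (standard error 0.22, adjusted p = 0.788 from limma), the groups overlapped, and it stayed at the threshold in 2 of 6 runs (-0.45 without WT 1, -0.83 without WT 3). Nfya, a subunit of the CCAAT-binding factor, and Mlx, the partner of ChREBP, had -0.23 (-0.48 to 0.01) and 0.21 (-0.03 to 0.46). Srebf2, Insig1 and Pparg had 0.00, -0.14 and -0.03.

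In glycerolipid synthesis, 2 of 16 genes were lower and 0 higher. Agpat2, which acylates lysophosphatidic acid, had 5.12, 4.99 and 5.44 in HCN4FEA, against 5.89, 5.44 and 5.53 in WT tissue (-0.44, standard error 0.17, adjusted p = 0.804 from limma). Dgat1, which does the reaction of Dgat2 with an unrelated protein, had 5.24, 5.05 and 5.15 in HCN4FEA, against 5.63, 5.68 and 5.23 in WT tissue (-0.37, standard error 0.15, adjusted p = 0.805 from limma). In both genes the highest HCN4FEA and lowest WT values met, and Agpat2 stayed at the threshold in 3 of 6 runs (-0.57 to -0.30 over the runs) and Dgat1 in 2 (-0.51 to -0.28). Agpat4 and Mogat2 had 0.56 (-0.04 to 1.15) and -0.26 (-0.55 to 0.03).

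Among 20 genes of pyruvate and glucose entry, 2 were lower and 0 higher. Pcx, pyruvate carboxylase, had 3.52, 3.03 and 3.09 in HCN4FEA, against 4.25, 3.29 and 3.86 in WT tissue (-0.59, standard error 0.25, adjusted p = 0.816 from limma; 2 of 6 runs). Mpc1, a subunit of the mitochondrial pyruvate carrier, had 7.42, 7.26 and 7.09 in HCN4FEA, against 7.54, 7.54 and 7.59 in WT tissue (-0.30, standard error 0.12, adjusted p = 0.805 from limma; 1 of 6 runs), and -0.20 on its other probe set. With both averaged, Mpc1 did not pass either (-0.25). Pck2, the mitochondrial counterpart of Pck1, and the hexokinase Hk2 had 0.22 (-0.04 to 0.47) and -0.28 (-0.63 to 0.07). None of 11 genes of NADPH supply, 17 of cholesterol synthesis or 13 of insulin and AMPK inputs passed the threshold, with medians of 0.00, 0.05 and -0.04. In these lists Idh1, which also makes cytosolic NADPH, had -0.21 (-0.47 to 0.05), Dhcr7, of the last step to cholesterol, -0.24 (-0.53 to 0.05), and the insulin-regulated phosphodiesterase Pde3b -0.19 (-0.45 to 0.06).

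**Figure D4:**
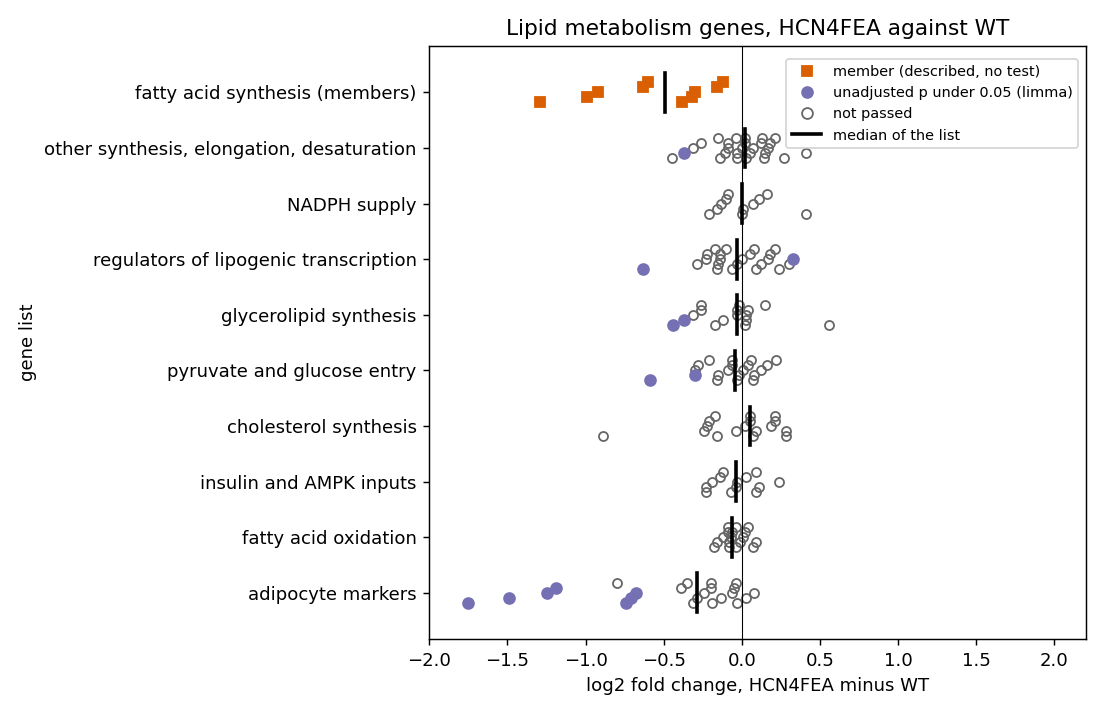
Log2 fold change, HCN4FEA minus WT, of the genes of 10 lists (rows), with filled circles for an unadjusted p under 0.05 by limma, open circles for genes that did not pass it, squares for the 10 genes chosen with this contrast known, and a line at each list's median. The medians are -0.49 for the 10 genes and -0.29 for adipocyte markers, and between -0.06 and 0.05 for the other 8 lists.

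Fatty acid oxidation, the opposite pathway and the main fuel route of the heart, had 0 of 17 measured genes at an unadjusted p under 0.05, with a median of -0.06 and fold changes from -0.18 (Cpt2) to 0.09 (Hadhb). Acadm, Acadvl and Echs1, of the oxidation cycle, had -0.16 (-0.42 to 0.09), -0.12 (-0.40 to 0.16) and -0.09 (-0.36 to 0.18).

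Adipocytes express all of the synthesis genes and can lie around the node, so their markers are set beside the 10 genes. Of 23 measured markers outside the 10, 7 were lower and 0 higher at the unadjusted threshold, with a median of -0.29 and 0 past an adjusted p of 0.05. Over all probe sets 2.71% were lower at that threshold. The list was drawn up with earlier results of these data known, so the count is a description. Adipoq, Cidec, Plin1, Adig and Aqp7 passed it in all 6 runs that leave out an array, and Pnpla3 and Car3 in 4. The summed linear signal of the list lay between 3220 and 3360 on the HCN4FEA arrays and between 3620 and 3930 on the WT arrays. Much of it came from Fabp4, Lpl and Cd36, which other cells of the heart also make. Adipoq, the fat hormone adiponectin, had 3.93, 2.82 and 3.63 in HCN4FEA, against 4.81, 4.63 and 4.69 in WT tissue. Cidec, of the lipid droplet, had 4.38, 2.75 and 4.59 in HCN4FEA, against 5.57, 5.71 and 5.68 in WT tissue. The groups of both were apart, with HCN4FEA 2 lowest. The aquaglyceroporin Aqp7 and the small membrane protein Adig had -0.68 and -0.71 (adjusted p = 0.724 and 0.739 from limma). Leptin, Lep, another defining marker, was between 1.08 and 1.72 on all 6 arrays, below 1.83, the 95th percentile of the receptor probe sets.

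Adipoq, Cidec, Plin1 and Car3 shared the low array HCN4FEA 2 with the synthesis genes, while Aqp7 was lowest on HCN4FEA 1. Adipoq, Plin1 and Car3 also shared the high WT 1, at 4.81, 5.10 and 8.90, while Cidec was lowest on WT 1 within WT. The WT arrays spanned 0.17 in Adipoq, 0.14 in Cidec and 0.14 in Aqp7, against 0.87 in Fasn, 1.43 in Acly, 0.89 in Acaca, 0.89 in Scd1 and 0.35 in Thrsp. Other adipocyte markers spanned more, with 0.50 in Car3, 0.70 in Retn, 0.76 in Lgals12 and 0.98 in Gpd1. Plin1, the perilipin of the adipocyte droplet, spanned 0.69 within WT, with 4.09, 2.79 and 3.74 in HCN4FEA, against 5.10, 4.41 and 4.70 in WT tissue. Pnpla3, a lipid droplet protein that is itself switched on by SREBP-1 in liver, was highest on WT 1 at 3.62 (2.31, 2.08 and 2.21 in HCN4FEA, against 3.62, 2.79 and 2.42 in WT tissue). Whether HCN4FEA tissue held fewer adipocytes, and what part that would have in the values of the 10 genes, was not tested. The hepatocyte marker Alb was between 1.13 and 1.29 on all arrays.

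**Figure D5:**
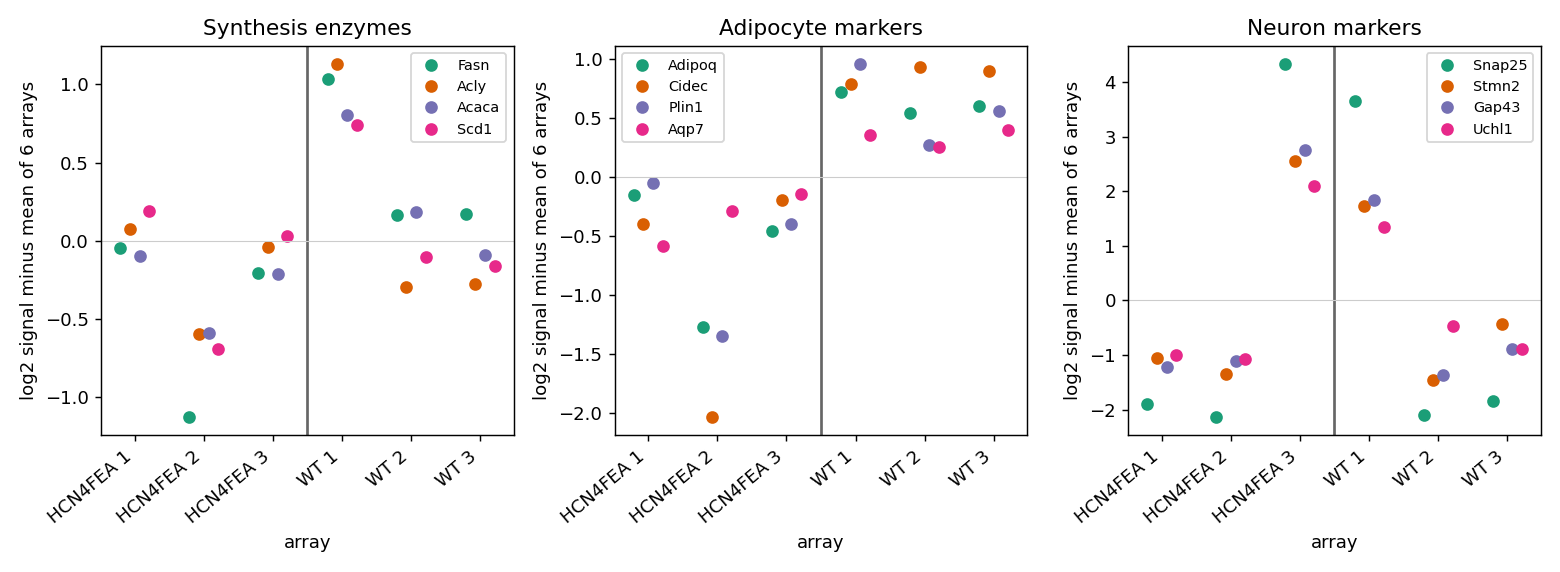
Log2 signal minus the mean of the 6 arrays for 4 synthesis enzymes, 4 adipocyte markers and 4 neuron markers, with HCN4FEA arrays left of the line and WT arrays right of it. The synthesis enzymes are highest on WT 1 and lowest on HCN4FEA 2, Adipoq and Cidec, chosen with their values seen, span 0.17 and 0.14 over the WT arrays, and the neuron markers are high on HCN4FEA 3 and WT 1.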

How the data were processed

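SAN tissue RNA for 3 HCN4FEA and 3 WT arrays was labelled with the Affymetrix whole transcript sense kit and hybridised to mouse gene arrays. The authors read the arrays into Expression Console 1.0 and normalised them by RMA, and the deposited values are log2 signals per probe set. They were used without further scaling. The sources used here do not give the annotation's genome build. The probe set numbers belong to a later design than the one named in the methods. Groups came from the sample labels. The 25341 probe sets with at least 1 symbol (23521 with 1, 1820 with several) were fitted with limma 3.58.1 in R 4.3.3 with genotype as the one term, and Benjamini-Hochberg adjustment ran over all of them. A gene was represented by its probe set with the highest mean. Precision is limited by having 3 arrays a genotype, for which the smallest exact permutation p is 0.1, and a p-value here reflects only how these arrays spread, which may be technical. The authors used a t-test in Partek 6.5. Alternatives were that t-test, each array left out, a replicate block, median centring, an intensity trend, array weights, other sets of probe sets and the mean of a gene's probe sets.

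Listed genes that no probe set with 1 symbol carried were not used. The members and lists were chosen with earlier results of these data known. Named were all members, up to 4 genes per list with the lowest p, the 10 genes most like the members within genotype, and tissue markers with high means. Others named (among them Slc25a1, Acss2, Elovl4, Elovl5, Hmgcs1, Sqle, Fdps, Fdft1, Fads1, Fads2, Srebf2, Insig1, Pparg, Hadhb, Fabp4, Lpl, Cd36, Lep, Alb, Plin1, Pnpla3, Car3, Retn, Lgals12, Hcn4 and Gpd1) were picked with their values in view. Same-numbered arrays did not deviate together. Scripts were tested on simulated data. Promoters were read from the RefSeq table for GRCm38.p6. Python 3.11.15 with matplotlib 3.10.9 made the plots.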

Additional observations from a re-analysis of the deposited data

How the results depend on the processing

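With each array left out in turn, the probe sets at an unadjusted p under 0.05 numbered 1303 to 2034 (1547 with all arrays), the fatty acid synthesis genes lower at that threshold 1 to 5 (3 with all arrays; 1 without WT 1 or HCN4FEA 2, 5 without HCN4FEA 1), and the genes of the 7 pathway lists 3 to 11 (7 with all arrays; 3 without WT 1, 11 without WT 3). The median fold change of the 10 genes ran from -0.63 to -0.31. The methods' t-test gave 1021 probe sets, 105 of them with a fold change of at least 1.5 and 0 after adjustment, and 0 of the 10 genes, against 287 with that fold by limma, 3 of them among the 10 genes (1 with arrays centred on their medians, 0 without WT 1 or without HCN4FEA 2). Testing only probe sets with a mean of at least 4 gave 637, and testing all 41345 gave 2445, by fewer and more probe sets. Without WT 1 and HCN4FEA 3, a choice made after seeing the data, 1 of the 10 genes was lower and Pck1 was at -2.42. Centring arrays on their medians gave 1288 higher and 411 lower probe sets, against 861 and 686, and moved the median of all fold changes to 0.06. The arrays' numbers did not pair them (correlations of the deviations of same-numbered arrays of -0.05, 0.09 and -0.03), and with the replicate block 1587 probe sets, 4 of the 10 genes and 9 pathway genes passed. The order within genotypes held for 8 genes with arrays centred on their medians. Averaging the probe sets of a gene could not change the 10 genes, which have 1 each, but left 5 of the 7 pathway genes (Scap and Mpc1 did not pass). The cause of these changes was not tested.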

Other observations

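A pair of genes outside fatty acid synthesis were carried by single arrays or by a part of a group. Hsd17b7, of cholesterol synthesis, had 3.01, 3.17 and 3.13 in HCN4FEA, against 5.85, 2.98 and 3.16 in WT tissue, so WT 1 alone stood apart, and its fold change of -0.89 was 0.03 without that array. Ucp1, the uncoupling protein of brown fat, had 1.45, 1.78 and 2.03 in HCN4FEA, against 4.60, 5.05 and 1.91 in WT tissue. WT 3 lay inside the HCN4FEA range, while WT 1 and WT 2 were high. WT 2 was also the WT array with the highest Pck1, but WT 1 had the lowest Pck1 of WT, at 3.34. HCN4FEA 3, with Pck1 at 5.22, had Ucp1 at 2.03. Ucp1, with a fold change of -2.1, was the most extreme of 10 brown fat markers, whose median was -0.07. Of these markers, 7 had fold changes below 0 and 3 above it, Dio2 (0.81), Zic1 (0.23) and Otop1 (0.17). Whether the WT tissue held more brown fat was not tested.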
